A study of Mus musculus with 18 samples.

Results

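The 33 genes described here make, lengthen, desaturate, store, release or burn fatty acids. They were taken by symbol from a list with 6 roles: 3 regulators of synthesis, 5 enzymes of fatty acid synthesis, 7 desaturases and elongases, 6 genes of glycerolipid synthesis, 2 lipases, and 10 genes of PPARA and beta-oxidation. All 33 were found among the 24062 gene symbols measured. The first 4 roles, 21 genes, are called the synthesis side and the last role the oxidation side, and the lipases belong to neither. The study measured RNA of whole liver, kidney and lung in C57BL/6 mice with an inducible Ccne1 transgene and its rtTA activator (CCNE-TA) and in mice that carried rtTA without the transgene (TA). Mice of both genotypes had doxycycline from 3 weeks of age, so the controls share the activator and the drug, and all were 4 months old when killed. Each of the 6 combinations of tissue and genotype had 3 libraries, 18 in all. The promoter that drives rtTA and the cells it reaches are not given in the sources used here, nor is it said whether libraries with the same number came from the same mouse.

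Fatty acid synthesis carries acetyl units from citrate into palmitate, which is then elongated, desaturated and joined to glycerol as phospholipid or as triglyceride for storage and export. In hepatocytes SREBP-1c, which responds to insulin, and ChREBP, which responds to glucose metabolites, turn on the genes of this route. Beta-oxidation runs the other way in mitochondria and peroxisomes, and PPAR-alpha raises many of its genes when fatty acids reach the liver in fasting.

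Total counts ranged from 20352770 to 155323865 per library, and 5 of the 6 lung libraries were deeper than every liver and kidney library. Ccne1 was higher in all CCNE-TA libraries than in all TA libraries of the same tissue, at 210.1 to 353 against 2.05 to 2.82 CPM (counts relative to library size, scaled by the TMM method) in liver, and the exact two-sided permutation p was 0.1 for all tissues, the lowest possible with groups of 3. The 6 hepatocyte markers summed to 90081 to 167780 CPM in liver, the 6 kidney tubule markers to 19695 to 74138 CPM in kidney and the 5 lung epithelium markers to 48169 to 125482 CPM in lung, so each tissue held the markers of its label. By Xist and Y-linked genes, liver CCNE-TA 3, TA 2 and TA 3 were from males, as was replicate 3 of each genotype in kidney and lung, and the other libraries were from females. The labels do not say that replicates were separate mice, so p-values measure the spread between these libraries.

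In liver, 13 of the 33 genes fell and 2 rose at an edgeR adjusted p under 0.05, and 18 did not pass. The 13 that fell are 39.4% of the members, beside 14.8% of all 13811 genes tested that fell in the same comparison, and 13.7% of all genes rose. Because the members were chosen with earlier results of these data known, no test is given for these shares. The CCNE-TA libraries lay wholly below the TA libraries for 16 members and wholly above them for 3, where 24.7% of all genes tested lay wholly below and 23.2% wholly above. The median log2 fold change (CCNE-TA minus TA) of the members was -0.68, beside 0.02 for all genes tested. Of the 21 genes on the synthesis side 9 fell and 2 rose, and of the 10 on the oxidation side 4 fell and 0 rose. These are whole-tissue samples, in which fewer cells of a type and less RNA per cell cannot be told apart. The number that fell was 8 without CCNE-TA 1, 7 without TA 1 and 1 (Gpam) with TA 1 as the sole control, which is assumed to vary like the other group. With Xist as a covariate for sex, 11 fell and 1 rose.

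Markers of other tissues also differed between the liver libraries. Of 7 pancreatic acinar markers 5 lay wholly lower in CCNE-TA, where 24.7% of all genes tested did. The 7 summed to 10.9, 14.3 and 9.14 CPM against 201, 84.4 and 22.7 CPM in TA, and 1 of the 3 tested passed. Of the white adipocyte markers Car3, which liver also expresses, carried most of the sum, and the other 7 summed to 21.4, 58.3 and 38.1 CPM in CCNE-TA and 34.7, 18 and 10.4 CPM in TA. Of the brown adipocyte markers Elovl3 had 1.7, 4.31 and 39.6 CPM in CCNE-TA and 2.48, 217 and 28.1 CPM in TA. Its levels were higher in the libraries from males (CCNE-TA 3, TA 2 and TA 3) than in those from females. Elovl3 is also among the other synthesis genes counted below. The other 4 brown adipocyte markers, of which Otop1 was at 0 throughout, summed to at most 2.49 CPM in any library. No marker of either adipocyte list passed the test. In other lists 2 of 6 kidney tubule, 2 of 5 lung epithelium and 2 of 4 cardiac muscle markers lay wholly higher in CCNE-TA. Of all genes tested 23.2% did so, and 5, 5 and 1 markers of these lists were tested. The kidney tubule sums were 29.8, 16.5 and 34.7 against 17.5, 0.324 and 0.398 CPM, the lung epithelium sums 15.4, 8.84 and 19.4 against 7.74, 9.89 and 9.5 CPM and the cardiac sums 2.23, 2.37 and 3.77 against 1.15, 1.65 and 0.711 CPM. Of these lists only Ager of lung epithelium passed. The 4 adrenal cortex markers summed to 96.2 CPM in CCNE-TA 2 and to 1.14 to 4.08 CPM in the other 5 libraries. Of the 6 hepatocyte markers, whose sums are mostly Alb, Cps1 fell, at 1806, 3093 and 1045 CPM in CCNE-TA and 4461, 6701 and 5061 CPM in TA. Apoa1 lay wholly higher in CCNE-TA without passing, and the other 4 had overlapping groups. The part of these markers in the results was not tested.

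**Figure D1:**
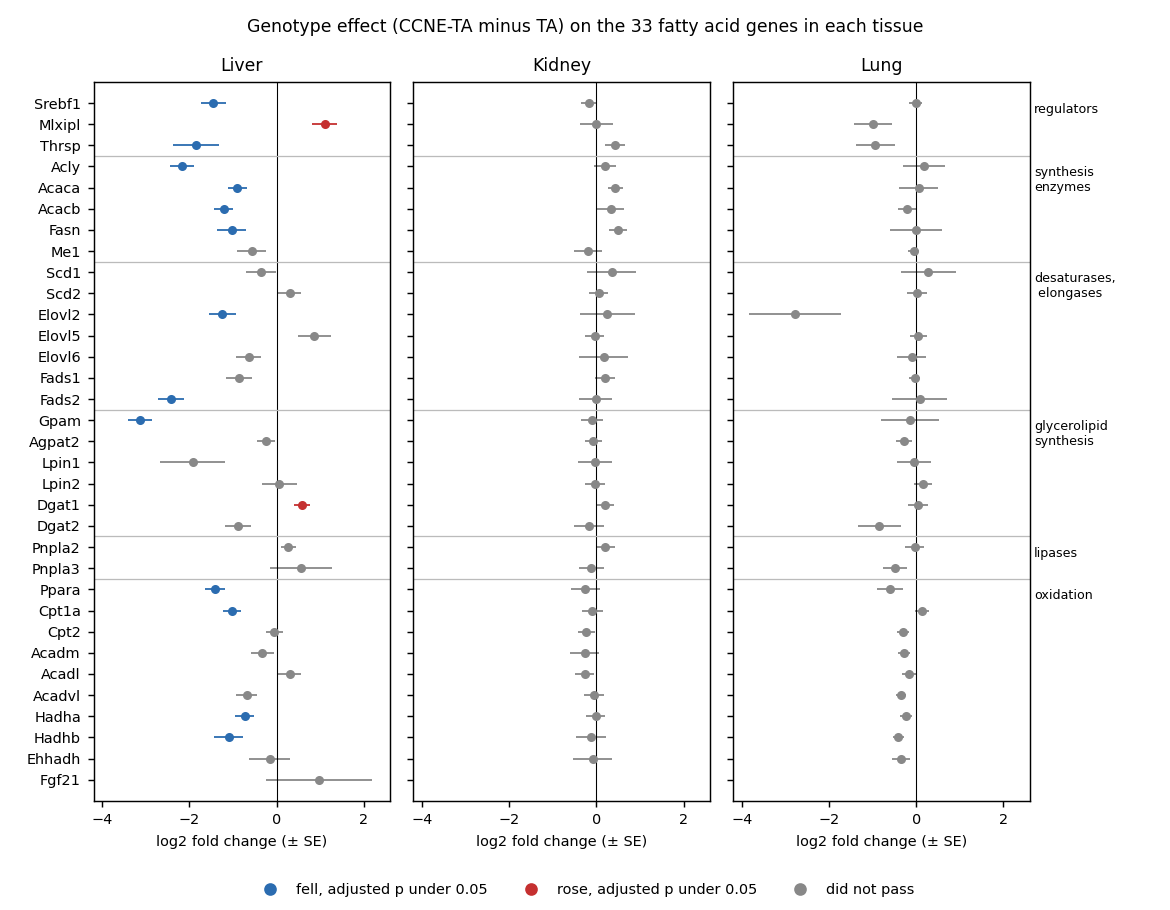
Log2 fold change (CCNE-TA minus TA, ± SE from edgeR) of the 33 genes in liver and the 32 tested (all but Fgf21) in kidney and lung, grouped by role, with n = 3 libraries per group; blue and red points passed the threshold. In liver 13 genes lie to the left in blue and 2 to the right in red, while no gene passed in kidney or lung.

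The 3 regulators of synthesis all passed the test in liver, and not in 1 direction. Srebf1, which encodes the SREBP-1 transcription factors (chr11:60199089-60222581, minus strand), stood at 86.8, 78.8 and 96.7 CPM in CCNE-TA 1, 2 and 3 and 252, 149.5 and 318 CPM in TA 1, 2 and 3. All CCNE-TA libraries lay below all TA libraries, a log2 fold change of -1.46 ± 0.29 (SE; adjusted p = 0.0106). Thrsp, the thyroid hormone responsive Spot 14 protein that promotes lipogenesis, stood at 32.2, 156 and 133 CPM in CCNE-TA 1, 2 and 3 and 429.6, 307 and 422 CPM in TA 1, 2 and 3. It fell with a log2 fold change of -1.85 ± 0.52 (SE; adjusted p = 0.0328), and CCNE-TA 1 was the lowest library. Mlxipl, which encodes ChREBP, stood at 455, 245 and 459 CPM in CCNE-TA 1, 2 and 3 and 191, 170.2 and 178 CPM in TA 1, 2 and 3. This gene rose, with a log2 fold change of 1.10 ± 0.28 (SE; adjusted p = 0.0224), and its TA libraries were close together while CCNE-TA 2 lay nearer to them than the other CCNE-TA libraries did. Srebf1 passed without any single library, while Thrsp did not pass without CCNE-TA 3, TA 1, TA 2 or TA 3 (adjusted p 0.0567 to 0.0977), and Mlxipl did not without CCNE-TA 1, TA 1, TA 2 or TA 3 (adjusted p 0.0551 to 0.0847).

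Of the 5 enzymes of fatty acid synthesis, 4 fell in liver and Me1 did not pass. Acly, ATP citrate lyase, which makes cytosolic acetyl-CoA from citrate, stood at 69.2, 77.6 and 43.3 CPM in CCNE-TA 1, 2 and 3 and 223, 331 and 301 CPM in TA 1, 2 and 3. The highest CCNE-TA library was at 77.6 CPM and the lowest TA library at 223 CPM, and the log2 fold change was -2.17 ± 0.28 (SE; adjusted p = 0.00332). Acetyl-CoA carboxylase makes malonyl-CoA, the building block of synthesis and a brake on mitochondrial fatty acid uptake. Its gene Acaca stood at 69, 60.7 and 82.8 CPM in CCNE-TA 1, 2 and 3 and 139, 105 and 153 CPM in TA 1, 2 and 3, a log2 fold change of -0.90 ± 0.22 (SE; adjusted p = 0.0193). The mitochondrial form Acacb stood at 57.1, 41.6 and 40.7 CPM in CCNE-TA 1, 2 and 3 and 98.6, 92.4 and 133 CPM in TA 1, 2 and 3, a log2 fold change of -1.22 ± 0.22 (SE; adjusted p = 0.0089). Neither gene's groups overlapped. Fasn, the synthase that builds palmitate, stood at 209, 260.3 and 165 CPM in CCNE-TA 1, 2 and 3 and 409.8, 272 and 613 CPM in TA 1, 2 and 3. CCNE-TA 2 and TA 2 were only 11.6 CPM apart, and the log2 fold change of -1.03 ± 0.33 (SE; adjusted p = 0.048) was just inside the threshold. Me1, malic enzyme, which supplies NADPH, had 79.7, 142 and 68.1 CPM in the CCNE-TA libraries against 188, 101 and 139.6 CPM in TA, with overlapping groups and an edgeR adjusted p of 0.224. Acly and Acacb passed without any single library; Acaca did not pass without CCNE-TA 1, TA 1 or TA 3 (adjusted p 0.0517 to 0.0769), and Fasn did not without CCNE-TA 1, CCNE-TA 3, TA 1 or TA 3 (adjusted p 0.0833 to 0.163).

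**Figure D2:**
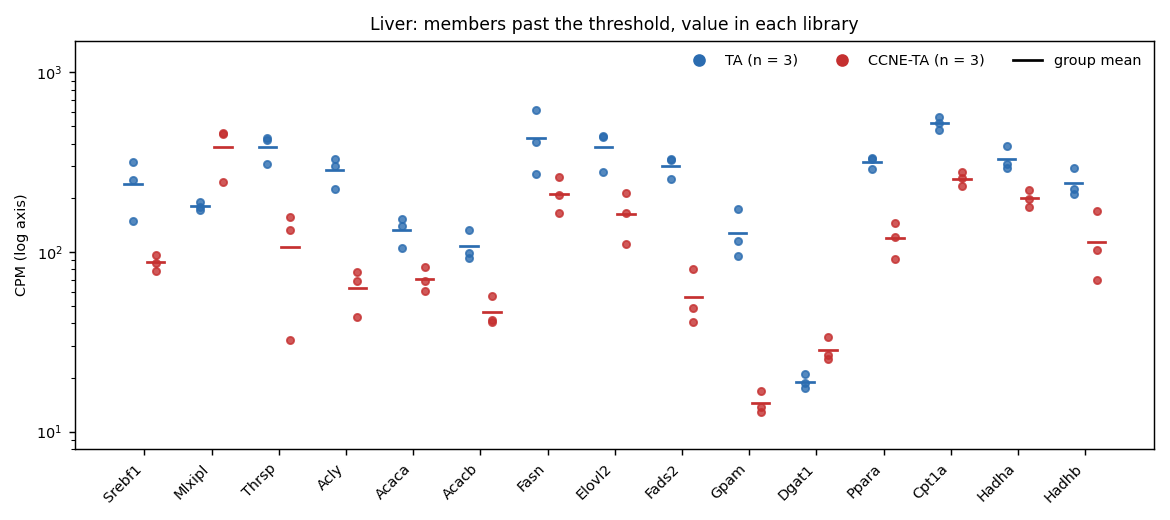
CPM on a log axis in each liver library for the 15 genes past the threshold, with TA in blue, CCNE-TA in red and a bar at each group mean (n = 3 per group). The groups do not overlap for any of the 15, and Gpam has the widest gap, from 16.9 CPM in the highest CCNE-TA library to 95.0 CPM in the lowest TA library.

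Upstream sequence is shown for Gpam and Acly, which are among the 3 members with the lowest log2 fold change in liver, and for the regulators Srebf1 and Mlxipl, which moved in opposite directions. Each stretch holds the 250 bases before the most upstream RefSeq start in build GRCm38.p6, written from 5′ to 3′ on the gene's strand, and holds no base of a GENCODE M21 exon. The positions are chr19:55127239-55127488 (minus strand) for Gpam, chr11:100528001-100528250 (minus) for Acly, chr11:60222582-60222831 (minus) for Srebf1 and chr5:135089640-135089889 (plus) for Mlxipl. Capitals mark matches, on either strand, to the sterol regulatory element TCACNCCAC, the E box CACGTG, the CCAAT box, the GC box GGGCGG or the direct repeat that PPAR-alpha with RXR can bind, AGGNCA and again AGGNCA with any 1 base between.
Gpam: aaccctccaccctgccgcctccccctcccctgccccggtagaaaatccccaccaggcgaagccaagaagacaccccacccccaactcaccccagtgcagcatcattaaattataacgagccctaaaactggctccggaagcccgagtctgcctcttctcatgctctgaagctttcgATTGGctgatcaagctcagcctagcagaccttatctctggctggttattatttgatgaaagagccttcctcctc
Acly: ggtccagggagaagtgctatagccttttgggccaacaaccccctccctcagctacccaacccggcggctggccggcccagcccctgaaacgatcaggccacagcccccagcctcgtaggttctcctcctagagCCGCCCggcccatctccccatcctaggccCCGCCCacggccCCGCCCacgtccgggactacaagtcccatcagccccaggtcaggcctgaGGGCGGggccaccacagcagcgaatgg
Srebf1: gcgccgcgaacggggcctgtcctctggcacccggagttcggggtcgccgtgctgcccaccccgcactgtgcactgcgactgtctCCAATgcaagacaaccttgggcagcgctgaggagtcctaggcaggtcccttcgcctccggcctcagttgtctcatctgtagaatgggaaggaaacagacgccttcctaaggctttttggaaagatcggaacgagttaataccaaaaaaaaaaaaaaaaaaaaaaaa
Mlxipl: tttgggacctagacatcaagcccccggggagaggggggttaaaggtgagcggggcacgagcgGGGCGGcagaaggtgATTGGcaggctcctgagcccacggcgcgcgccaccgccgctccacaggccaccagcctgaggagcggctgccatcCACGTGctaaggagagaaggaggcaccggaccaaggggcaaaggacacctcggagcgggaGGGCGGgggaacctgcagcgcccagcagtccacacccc
The Gpam stretch holds 1 CCAAT match, written as its reverse complement, the Acly stretch 4 GGGCGG matches and the Srebf1 stretch 1 CCAAT match. The Mlxipl stretch holds 1 CACGTG, 1 CCAAT and 2 GGGCGG matches. Of the 33 members 28 had a RefSeq start in the table, all but Dgat1, Dgat2, Fads1, Scd1 and Scd2. TCACNCCAC was found before a start of 2 of the 28 (Ehhadh and Mlxipl) and in 1.05% of 32851 windows of all genes, and CACGTG in 4 (Elovl5, Fgf21, Lpin2 and Mlxipl) and 6.02%. These motifs lay in 2 and 4 of the 36 windows of the members. CCAAT was found for 12 members, in 13 of their 36 windows, and in 33.8% of all windows. GGGCGG was found for 19 members, in 21 of the 36 windows, and in 32.7%. The direct repeat was found for 0 members and in 0.338%. Some members have several starts, each with its own window: Srebf1 has 3, and Gpam and Mlxipl have 2 each. Matches before starts not shown were therefore counted, GGGCGG for Srebf1 and Gpam and TCACNCCAC for Mlxipl among them. Which transcript form begins at the start shown was not examined, and these letters describe the windows only.

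Among the 7 desaturases and elongases, Fads2 and Elovl2 fell in liver and the other 5 did not pass. Both act on polyunsaturated fatty acids: Fads2 is the delta-6 desaturase, and Elovl2 elongates the long-chain products towards docosahexaenoic acid. Fads2 stood at 48.5, 80.2 and 40.8 CPM in CCNE-TA 1, 2 and 3 and 325, 329 and 254 CPM in TA 1, 2 and 3. The log2 fold change was -2.42 ± 0.30 (SE; adjusted p = 0.00277), and the groups were far apart. Elovl2 stood at 213, 165 and 110.5 CPM in CCNE-TA 1, 2 and 3 and 441, 439 and 278 CPM in TA 1, 2 and 3, a log2 fold change of -1.25 ± 0.31 (SE; adjusted p = 0.0206). Fads2 passed without any single library, and Elovl2 did not pass without TA 1 or TA 2 (adjusted p 0.0546 and 0.0689) or in a fit of all 18 libraries (adjusted p 0.224). Fads1, the delta-5 desaturase next to Fads2 on chromosome 19, had 297, 384 and 188 CPM in the CCNE-TA libraries against 471, 596 and 514 CPM in TA. Its groups did not overlap, and its log2 fold change of -0.86 ± 0.29 (SE) missed the threshold with an edgeR adjusted p of 0.0566. The genes of monounsaturated fatty acid synthesis showed no call: Scd1, the main liver stearoyl-CoA desaturase, had 2534, 4224 and 2571 CPM in the CCNE-TA libraries against 2669, 4368 and 4978 CPM in TA. Scd2 was low, at 4.89 to 8.96 CPM over the 6 libraries. Elovl6, which elongates palmitate to stearate, had 56.6, 55.8 and 86.1 CPM in the CCNE-TA libraries against 86.7, 81.9 and 141 CPM in TA, a log2 fold change of -0.64 ± 0.28 (SE) with an edgeR adjusted p of 0.112. Elovl5, an elongase of polyunsaturated fatty acids, had the opposite sign, with 529, 489 and 211 CPM in the CCNE-TA libraries against 302, 207 and 164 CPM in TA. CCNE-TA 3 lay within the TA range, and the log2 fold change was 0.87 ± 0.38 (SE; adjusted p = 0.117).

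Of the 6 genes of glycerolipid synthesis, Gpam fell and Dgat1 rose in liver. Gpam encodes the mitochondrial glycerol-3-phosphate acyltransferase that attaches the first fatty acid to glycerol (chr19:55067268-55127238, minus strand). It stood at 12.8, 13.8 and 16.9 CPM in CCNE-TA 1, 2 and 3 and 95, 173 and 115 CPM in TA 1, 2 and 3, a log2 fold change of -3.14 ± 0.27 (SE; adjusted p = 0.000919). This was the lowest log2 fold change among the 33 members in liver, and it passed in all 16 alternatives tried, between -3.32 and -2.73. Dgat1 and Dgat2 catalyse the same last step, from diacylglycerol to triglyceride, with unrelated proteins. Dgat1 stood at 26.7, 25.3 and 33.6 CPM in CCNE-TA 1, 2 and 3 and 18.6, 20.8 and 17.5 CPM in TA 1, 2 and 3, a log2 fold change of 0.59 ± 0.18 (SE; adjusted p = 0.0406). This rise did not pass without CCNE-TA 1, CCNE-TA 3, TA 1, TA 2 or TA 3 (adjusted p 0.0804 to 0.137). Dgat2 had 268, 514 and 307 CPM in the CCNE-TA libraries against 744, 687 and 587 CPM in TA, with groups that did not overlap, a log2 fold change of -0.89 ± 0.30 (SE) and an edgeR adjusted p of 0.0532. The difference between the effects on Dgat1 and Dgat2 was not tested. Lpin1, a phosphatidate phosphatase that also acts as a coactivator of PPAR-alpha, was spread widely in the controls, with 126, 324 and 134 CPM in the CCNE-TA libraries against 872, 1203 and 149 CPM in TA. TA 3 lay among the CCNE-TA libraries, and the edgeR adjusted p was 0.0937, or 0.0288 without TA 3. Lpin2, its main hepatic relative, had 318, 260.2 and 500.5 CPM in the CCNE-TA libraries against 335, 512 and 183 CPM in TA. Agpat2, which adds the next fatty acid after Gpam, ranged from 109.9 to 175 CPM. Both had overlapping groups, with edgeR adjusted p of 0.913 and 0.4.

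The lipases did not pass. Pnpla2, adipose triglyceride lipase, had 124, 128 and 115 CPM in the CCNE-TA libraries against 106, 104 and 94.7 CPM in TA, groups that did not overlap and a log2 fold change of 0.27 ± 0.17 (SE; adjusted p = 0.266). Pnpla3, a lipid droplet protein close to it in sequence, was below 2 CPM in every liver library, from 0.199 to 1.89 CPM.

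On the oxidation side, Ppara, Cpt1a, Hadha and Hadhb fell in liver and the other 6 genes did not pass. Ppara encodes the nuclear receptor PPAR-alpha (chr15:85734983-85802819, plus strand). It stood at 90.9, 121 and 146 CPM in CCNE-TA 1, 2 and 3 and 331, 332 and 290.4 CPM in TA 1, 2 and 3, with tightly grouped controls and a log2 fold change of -1.41 ± 0.23 (SE; adjusted p = 0.00656). Cpt1a, the carnitine palmitoyltransferase that admits long-chain fatty acids to mitochondria, stood at 257, 278 and 234 CPM in CCNE-TA 1, 2 and 3 and 566, 476 and 519 CPM in TA 1, 2 and 3. Its lowest TA library was 1.71 times its highest CCNE-TA library, and the log2 fold change was -1.02 ± 0.21 (SE; adjusted p = 0.0121). Cpt2, the enzyme that follows it at the inner membrane, had 163, 194 and 154 CPM in the CCNE-TA libraries against 202, 167 and 160.3 CPM in TA. Its groups overlapped and its log2 fold change was -0.05 ± 0.20 (SE; adjusted p = 0.877).

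Hadha and Hadhb encode the alpha and beta subunits of the mitochondrial trifunctional protein, which carries out the last 3 steps of long-chain beta-oxidation. Their genes lie head to head on chromosome 5, with RefSeq starts 273 bases apart and 228 bases shared between the 250-base stretches before the starts. Hadha stood at 177, 223 and 196 CPM in CCNE-TA 1, 2 and 3 and 392, 307 and 293 CPM in TA 1, 2 and 3, a log2 fold change of -0.73 ± 0.22 (SE; adjusted p = 0.0386). Hadhb stood at 102, 169 and 69.5 CPM in CCNE-TA 1, 2 and 3 and 293, 225 and 210.1 CPM in TA 1, 2 and 3, a log2 fold change of -1.10 ± 0.33 (SE; adjusted p = 0.0391). Both subunit genes fell, and for both CCNE-TA 2 was the highest of its group and TA 1 the highest of the controls. Ppara passed without any single library, Cpt1a did not pass without CCNE-TA 1 (adjusted p 0.0586), and Hadha and Hadhb did not without CCNE-TA 1, CCNE-TA 3, TA 1, TA 2 or TA 3 (adjusted p 0.0539 to 0.151).

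The acyl-CoA dehydrogenases, which start each round of mitochondrial beta-oxidation, did not pass in liver. Acadvl, for very long chains, had 333, 363 and 254 CPM in the CCNE-TA libraries against 579, 457 and 490.3 CPM in TA, with groups that did not overlap and an edgeR adjusted p of 0.0597. It shares 42.9% of its exon bases with Dvl2, whose reads cannot be told apart from its own there when strand is not recorded. Acadm, for medium chains, had 335, 373 and 262 CPM in the CCNE-TA libraries against 525, 359.8 and 335 CPM in TA, and Acadl, for long chains, had 286, 287 and 206 CPM in the CCNE-TA libraries against 281, 173 and 178 CPM in TA. Their groups overlapped, with log2 fold changes of -0.33 ± 0.26 and 0.30 ± 0.27 (SE). Ehhadh, the peroxisomal bifunctional enzyme, had 303, 442 and 143 CPM in the CCNE-TA libraries against 528, 259 and 205 CPM in TA. Fgf21, a hormone that PPAR-alpha induces in liver, had 5.81, 0.844 and 4.26 CPM in the CCNE-TA libraries against 4.79, 0.216 and 0.426 CPM in TA. Its groups overlapped, with TA 1 close to CCNE-TA 1 and CCNE-TA 3, and its log2 fold change was 0.97 ± 1.22 (SE) with an edgeR adjusted p of 0.58. Without TA 1 the log2 fold change was 3.48 with an adjusted p of 0.0346, and with TA 1 as the sole control it was -0.42.

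The 2 sides were set against each other in each tissue with the 21 synthesis genes and the 9 oxidation genes that were tested in all tissues, Fgf21 left out. In liver the mean log2 fold change was -0.86 on the synthesis side and -0.58 on the oxidation side, a difference of -0.28. Per library, mean log2(CPM + 1) of the synthesis genes minus that of the oxidation genes was -0.92, -0.94 and -0.70 in CCNE-TA 1, 2 and 3 and -0.83, -0.45 and -0.47 in TA 1, 2 and 3, with a pooled SD between libraries of 0.18. TA 1 lay within the CCNE-TA range, and with TA 1 as the only control the difference was -0.0086. TA 1 was the only control from a female and CCNE-TA 3 the only CCNE-TA library from a male, so sex was not balanced between the genotypes. With Xist as a covariate for sex the difference was -0.13. In kidney the means were 0.11 and -0.15, a difference of 0.26 with a pooled SD of 0.16, and in lung they were -0.27 and -0.29, a difference of 0.02 with a pooled SD of 0.30. The list was chosen with results of these data known, so no test is given for these means. In liver the levels of both sides were lower in CCNE-TA: the synthesis mean was 6.86 ± 0.17 against 7.71 ± 0.07, and the oxidation mean 7.71 ± 0.27 against 8.29 ± 0.27, on the log2(CPM + 1) scale (SD, n = 3).

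**Figure D3:**
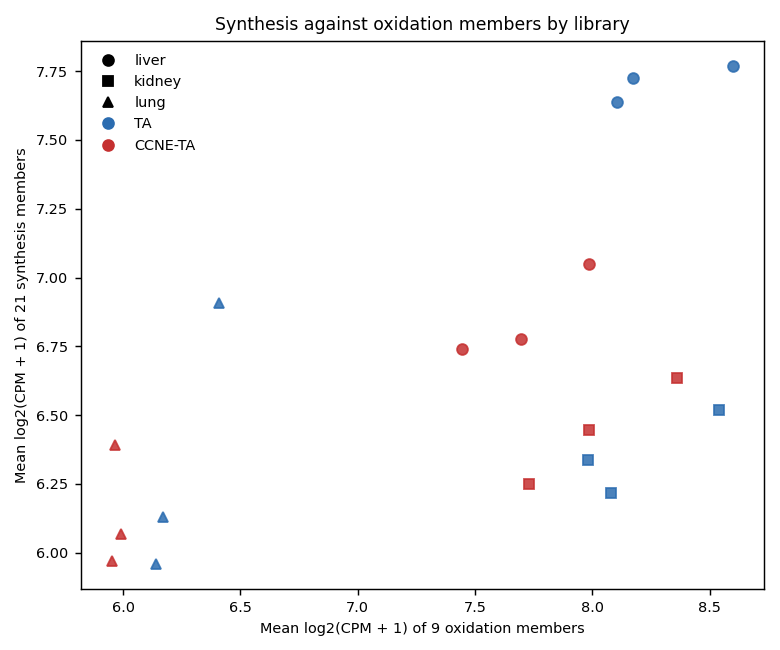
Mean log2(CPM + 1) of 9 oxidation genes (horizontal) and 21 synthesis genes (vertical) in each of the 18 libraries, with symbols for tissue and colours for genotype. The 3 liver CCNE-TA libraries lie below the 3 liver TA libraries on the vertical axis (6.74 to 7.05 against 7.64 to 7.77), while the genotypes overlap on that axis in kidney and lung.

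Fold changes in liver went with transcript length. Across 13729 genes Spearman's rho between log2 fold change and exonic length was -0.28, a description over genes that share the same libraries. The median log2 fold change of all genes was 0.52 up to 2000 bases, 0.07 from 2000 to 5000 and -0.22 above 5000 bases. The members had medians of 0.77 (2 genes), -0.37 (17 genes) and -1.03 (14 genes) in the same classes. With offsets for length and GC content 12 members fell and 1 rose: Acaca, Fasn, Hadha and Dgat1 lost their calls, while Dgat2 and Acadvl fell with adjusted p of 0.0357 and 0.0273.

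Neighbouring genes of the same pathways, from lists that also were drawn up with earlier results known, were counted in liver as well. Of 29 other synthesis genes 3 fell (10.3%, beside 14.8% of all genes) and 3 rose, with a median log2 fold change of -0.26. The 3 that fell were Gpat4 (listed as Agpat6, the acyltransferase of the endoplasmic reticulum, -1.11 ± 0.23), Mbtps1 (the protease that cleaves SREBPs first, -0.65 ± 0.16) and Scap (the SREBP escort, -0.84 ± 0.26, log2 ± SE). The 3 that rose were Hacd2 (listed as Ptplb, a dehydratase of chain elongation, 0.91 ± 0.17), Elovl7 (an elongase, 1.95 ± 0.50) and Agpat1 (a relative of Agpat2, 0.90 ± 0.25). Of 36 other oxidation genes tested 5 fell (13.9%, beside the same 14.8%) and 2 rose, with a median of -0.12. Rxra, the dimer partner of PPAR-alpha, fell by 1.35 ± 0.21 on the log2 scale, with 206, 252 and 212 CPM against 563, 557 and 588 CPM. Acad11 (an acyl-CoA dehydrogenase, -1.31 ± 0.31), Abcd3 (a peroxisomal transporter, -1.004 ± 0.26), Etfdh (which passes electrons to ubiquinone, -1.48 ± 0.39) and Pex11a (a peroxisome division factor, -1.33 ± 0.35, named outside the naming rule after its value was seen) fell as well. Acot2, a mitochondrial acyl-CoA thioesterase, rose from 3.46 ± 2.49 to 23.2 ± 5.55 CPM (SD, n = 3), a log2 fold change of 2.73 ± 0.48 (SE; adjusted p = 0.0083). Etfb, which carries electrons from the dehydrogenases to Etfdh, rose as well (0.91 ± 0.21).

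Among 12 genes of fatty acid uptake and storage in liver, 1 rose and 2 fell (16.7%), so the shares that fell in these 3 lists were near that of all genes or below it. Lpl, the lipoprotein lipase that frees fatty acids from circulating triglyceride and is low in adult hepatocytes, stood at 208, 190.1 and 88.1 CPM in CCNE-TA 1, 2 and 3 and 14, 30.4 and 11.1 CPM in TA 1, 2 and 3. Its log2 fold change was 3.13 ± 0.48 (SE; adjusted p = 0.00567). Mttp, which loads lipid onto apolipoprotein B for export, and Slc27a5, a liver fatty acid transport protein and bile acid ligase, fell with log2 fold changes of -0.84 ± 0.23 and -1.11 ± 0.35 (SE). In kidney and lung 0 genes of these 3 lists passed the edgeR test, with 1 and 10 at an unadjusted p under 0.05 over the 3 lists.

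In kidney 0 of the 32 members tested passed the edgeR test, where 0.0131% of all 15247 genes did. DESeq2 and limma-voom also called 0, and each of the 3 tools had 2 members at an unadjusted p under 0.05. By edgeR these 2 were Acaca and Fasn, both with the opposite sign to liver. Acaca had 52.1, 56 and 68.8 CPM in the CCNE-TA libraries against 44.8, 44.1 and 41.9 CPM in TA, a log2 fold change of 0.44 ± 0.17 (SE; adjusted p = 0.999). Fasn had 235, 311 and 315 CPM in the CCNE-TA libraries against 225, 196 and 187 CPM in TA, a log2 fold change of 0.50 ± 0.21 (SE). Both had CCNE-TA wholly higher, as did 3.04% of all genes, and neither difference held after adjustment. Gpam, the member that fell most in liver, had 8.81, 15.2 and 15.4 CPM in the CCNE-TA libraries against 12.9, 16.3 and 13.3 CPM in TA in kidney. The median log2 fold change of the members was -0.03. The 9 oxidation genes tested were all below 0, from -0.27 to -0.01, and for Acadl alone CCNE-TA lay wholly lower, as for 2.68% of all genes. Fgf21 did not pass the filter on low counts, at 0 to 0.0964 CPM, 4 reads at most per library. Of 5 lung epithelium markers 4 lay wholly lower in CCNE-TA kidney. The 5 summed to 36.5, 21.5 and 23.5 CPM in CCNE-TA and 145, 50.9 and 45.8 CPM in TA. In other lists 1 brown adipocyte marker lay wholly lower and 1 pancreatic acinar marker wholly higher. White adipocyte markers summed to 627, 555 and 734 CPM in CCNE-TA and 691, 454 and 151 CPM in TA. No marker of these lists passed the edgeR test, and their part in the results was not tested.

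Replicate 3 of each genotype in kidney, the male pair, stood apart for some lipogenic genes. Scd1 had 1037, 1503 and 344 CPM in the CCNE-TA libraries against 881, 1067 and 318 CPM in TA. Elovl2 had 52.3, 58.4 and 12.9 CPM in the CCNE-TA libraries against 34.8, 54.7 and 13.9 CPM in TA. Elovl6, the elongase of palmitate, had 129.9, 95.6 and 38 CPM in the CCNE-TA libraries against 118, 86.4 and 29.3 CPM in TA. In each case both lowest libraries were numbered 3. With 1 sample of that sex per genotype, sex and anything else that the libraries numbered 3 share cannot be told apart.

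In lung 0 of the 32 members tested passed the edgeR test, where 0.00594% of 16823 genes did. DESeq2 and limma-voom called 0 as well, and 3, 5 and 4 members were at an unadjusted p under 0.05 by edgeR, DESeq2 and limma-voom. The 3 by edgeR were Elovl2, Acadvl and Hadhb. Hadhb had 111, 122 and 109.5 CPM in the CCNE-TA libraries against 153, 135 and 167 CPM in TA, a log2 fold change of -0.41 ± 0.12 (SE; adjusted p = 1), and Acadvl had 105, 125 and 127 CPM in the CCNE-TA libraries against 154, 148 and 154 CPM in TA. Of the 9 oxidation genes tested 8 were below 0, with a median log2 fold change of -0.31 beside 0.02 for all genes, and for 6 of them (Ppara, Cpt2, Acadm, Acadvl, Hadha and Hadhb) CCNE-TA lay wholly lower, as for 4.59% of all genes. Cpt1a was the exception in sign, and 0 members lay wholly higher, where 3.3% of all genes did. Elovl2 was low in lung, with 1.17, 0.299 and 0.131 CPM in the CCNE-TA libraries against 1.59, 1.43 and 8.29 CPM in TA. Hepatocyte markers differed in the same direction between genotypes: all 6 lay wholly lower in CCNE-TA lung, with sums of 261, 93.3 and 24.9 CPM in CCNE-TA and 377, 591 and 2047 CPM in TA. Within CCNE-TA these sums ran in the same order as Elovl2 and in the reverse order to Acadvl, while Hadhb followed neither order. All 5 brown adipocyte markers lay wholly lower too, with sums of 17.7, 11.3 and 14.7 against 89.5, 51.2 and 139 CPM, and the 8 white adipocyte markers summed to 204, 338 and 309 against 453, 322 and 682 CPM. The 4 cardiac muscle markers summed to 348, 452 and 464 CPM in CCNE-TA and 831, 430 and 765 CPM in TA, and 1 of them lay wholly lower. No marker of these lists was at 0 in all lung libraries, none passed the edgeR test, and their part in the result was not tested.

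Several members, most of them of synthesis, split the lung libraries across genotype. Lung CCNE-TA 1, the deepest library, and TA 3, the shallowest of lung, had the 2 highest levels of 10 members: Acly, Acaca, Fasn, Scd1, Fads2, Gpam, Elovl6, Fads1, Dgat2 and the oxidation gene Cpt1a. The share of all genes with this order was not counted. Across all genes tested in lung the deviations of these 2 libraries from their group means correlated at 0.557, so the split was not particular to the members. Fasn had 765, 334 and 234 CPM in the CCNE-TA libraries against 281, 274 and 785 CPM in TA. Scd1 had 2893, 1299 and 790.0 CPM in the CCNE-TA libraries against 778, 863 and 2476 CPM in TA. Gpam had 119, 40.2 and 32.2 CPM in the CCNE-TA libraries against 40.2, 43 and 129 CPM in TA. For these 3 genes the lower of CCNE-TA 1 and TA 3 was 2.29, 1.91 and 2.77 times the highest other lung library. The same ratio was 1.80 for Acly, 1.91 for Acaca, 2.54 for Fads2 and 1.43 for Elovl6, and 1.08 to 1.11 for Fads1, Dgat2 and Cpt1a, while Srebf1 did not have this order, with 141, 128 and 145 CPM in the CCNE-TA libraries against 124, 130.1 and 165 CPM in TA. CCNE-TA 1 was female and TA 3 male by the sex genes. The 5 leukocyte markers summed to 579 CPM in CCNE-TA 1 and 196 to 269 CPM in the other 5 lung libraries, and TA 3 had the highest hepatocyte and white adipocyte sums, 2047 and 682 CPM. The part of these markers in the pattern was not tested. Without CCNE-TA 1 and TA 3, 0 members passed in lung.

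**Figure D4:**
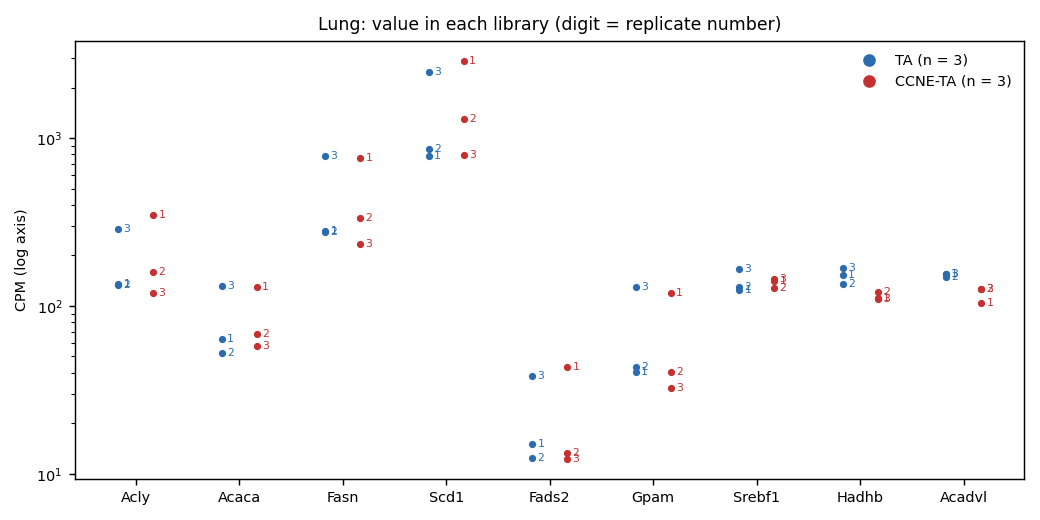
CPM on a log axis for 9 members in each lung library, with TA in blue, CCNE-TA in red and the replicate number beside each point. CCNE-TA 1 and TA 3 lie above the other 4 libraries for Acly, Acaca, Fasn, Scd1, Fads2 and Gpam and not for Srebf1, Hadhb or Acadvl.

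The genotype effect was compared between tissues by terms for the interaction of tissue and genotype in an edgeR fit that held all 18 libraries. The liver terms share the liver libraries. Between liver and kidney 5 of 33 members differed, all lower in liver, where 9.52% of 17155 genes differed. They were Gpam, with a difference of log2 fold changes of -3.04 ± 0.68 (SE, adjusted p = 0.0171), Acly with -2.37 ± 0.55 (SE, adjusted p = 0.019), Srebf1 with -1.29 ± 0.31 (SE, adjusted p = 0.021), Acacb with -1.55 ± 0.40 (SE, adjusted p = 0.0274) and Thrsp with -2.29 ± 0.66 (SE, adjusted p = 0.041). All 5 are on the synthesis side; the oxidation genes had 0 calls in this term, with Cpt1a nearest at an adjusted p of 0.0597. Kidney libraries that share a number also shared deviations from their group means, and with the replicate number as a block only Srebf1 and Acly passed. The count was 1 without kidney CCNE-TA 2 and 9 without liver CCNE-TA 2.

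Between liver and lung 6 of 33 members differed, where 12.7% of all genes did. Gpam (-3.02 ± 0.68, adjusted p = 0.0144), Fads2 (-2.52 ± 0.74, adjusted p = 0.0383), Acly (-2.36 ± 0.55, adjusted p = 0.0167), Srebf1 (-1.47 ± 0.31, adjusted p = 0.0108) and Cpt1a (-1.18 ± 0.30, adjusted p = 0.0231) were lower in liver. In the same terms, differences of log2 fold changes ± SE, Mlxipl was higher by 2.06 ± 0.58 (SE, adjusted p = 0.0314), with a lung log2 fold change of -0.995 ± 0.43 that did not pass on its own. The count was 3 without lung CCNE-TA 1 or TA 1 and 2 without lung TA 2. Between kidney and lung 0 members differed in the edgeR test, where 0.00583% of genes did, with 1 at an unadjusted p under 0.05 and 0 called by DESeq2 or limma-voom.

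The control libraries show the RNA levels of the members without the transgene. By the sex genes TA 2 was male in liver and female in kidney and lung. Sex was therefore not balanced between the control tissues. Levels per length (RPKM, which divides CPM by exonic length) followed the order liver, kidney, lung for 18 members, liver, lung, kidney for 9 and kidney, liver, lung for 4, by the mean of 3 TA libraries, with Scd2 and Pnpla3 lowest in liver. These 3 comparisons share their libraries, and most genes differ between tissues. Between liver and kidney 26 of 32 members differed (24 higher in liver), beside 64.9% of 16578 genes. Between liver and lung 30 of 32 differed (29 higher in liver), beside 71.5%, and between lung and kidney 19 of 32 (16 lower in lung), beside 60.6%. Not past the test between liver and kidney were Acadl, Pnpla3, Ehhadh, Acadm, Pnpla2 and Me1, and between liver and lung Pnpla3 and Pnpla2.

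Scd1 had the highest RPKM of the members in control liver, 961, 1554 and 1741 RPKM in TA 1, 2 and 3, against 151, 185 and 54.7 RPKM in kidney and 109, 122 and 342 RPKM in lung. Its relative Scd2 had the reverse order, with 2.07, 1.85 and 1.53 RPKM in liver, 16.4, 22.2 and 19.1 RPKM in kidney and 76.2, 69.3 and 110.0 RPKM in lung. The Scd2 level was 46.6-fold lower in liver than in lung (edgeR adjusted p = 1.42e-07), and Scd2 and Dgat1 were the members lower in liver than in kidney. Elovl2 ran from 169.5 ± 43 in liver over 7.34 ± 4.38 in kidney to 0.646 ± 0.666 RPKM in lung (SD, n = 3). Gpam, which fell in CCNE-TA liver, stood at 25.1, 45.1 and 29.5 RPKM in control liver, 1.63, 2.08 and 1.68 RPKM in kidney and 4.14, 4.44 and 13.1 RPKM in lung. In CCNE-TA liver its RPKM was 3.36, 3.62 and 4.23, below 25.1, the lowest control liver value, and within the range of 1.63 to 13.1 over control kidney and lung. Fads2 stood at 159.7 ± 24.2 RPKM in control liver and 29.6 ± 11.5 in CCNE-TA liver, against 5.39 ± 1.86 in control kidney and 4.51 ± 2.88 in control lung.

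Of the oxidation genes Acadm, Acadl and Ehhadh did not differ past the threshold between control liver and kidney. Acadm stood at 181 ± 48.5 RPKM in control liver and 243 ± 81.7 in control kidney (edgeR adjusted p = 0.208), and Acadl at 183 ± 55.5 and 197 ± 4.64 (adjusted p = 0.693). The lowest and highest values of the tissues overlapped for Acadm and Acadl. Ppara was 8.86-fold higher in liver than in kidney and 58.5-fold higher than in lung (edgeR adjusted p = 1.73e-05 and 5.18e-07). All 9 oxidation genes tested were lower in lung than in kidney, with Ehhadh at 119.6 ± 49.7 RPKM in kidney and 3.4 ± 0.836 in lung. Among the regulators Mlxipl was high in liver and kidney, at 56.4 ± 3.8 and 30.7 ± 4.17 RPKM, and 2.06 ± 0.645 in lung, while Srebf1 in lung and kidney did not differ past the threshold (16.9 ± 2.56 and 11 ± 1.55 RPKM, edgeR adjusted p = 0.0659). The lipase Pnpla2 stood at 58.5 ± 4.36, 57 ± 11.9 and 42.6 ± 9.7 RPKM in liver, kidney and lung.

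**Figure D5:**
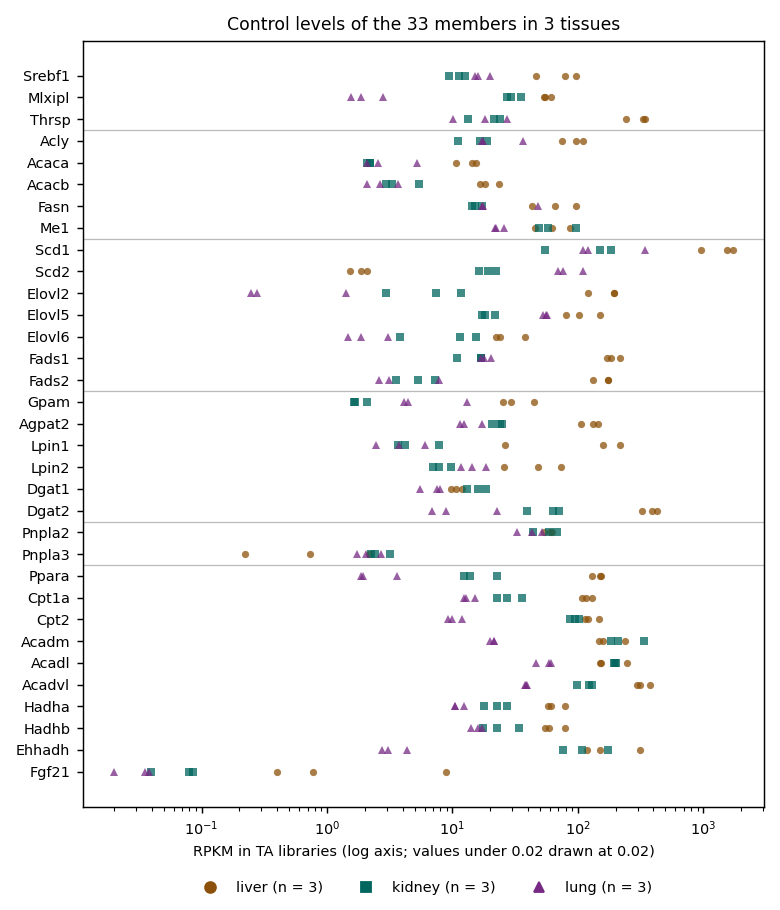
RPKM on a log axis of each of the 33 genes in the 9 TA libraries, with liver as brown circles, kidney as green squares and lung as purple triangles (n = 3 per tissue). Liver points lie to the right for most genes, and Scd2 has the reverse order.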

How the data were processed

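The 18 libraries hold RNA of liver, kidney or lung. For each, the authors deposited raw counts of reads by gene symbol, not normalized. Per the submitters' processing notes, the tools were TopHat2 2.0.14, Bowtie2 2.2.6 and featureCounts 1.4.6 of Subread with build mm10; the annotation, the strand setting and the treatment of reads with several alignments are not given in the sources used here. Per the labels' protocols, the library kit was TruSeq RNA version 2, which does not mark strand.

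Each tissue was fitted with edgeR 4.0.16 in R 4.3.3 (filterByExpr, TMM scaling, robust quasi-likelihood F test of genotype). Adjusted p-values are Benjamini-Hochberg values over every gene tested, and the threshold was 0.05. CPM use TMM factors within a tissue, and RPKM use factors over all libraries and exonic lengths from GENCODE M21, on the files' build, found for 98.5% of symbols. Differences of the genotype effect between tissues are interaction terms in 1 fit of 18 libraries, and control tissues were compared in 9 TA libraries. The tests were tried on simulated data first. Alternatives were DESeq2 1.42.0, limma-voom (limma 3.58.1), other scalings, no filter, a replicate block, Xist as a covariate, length and GC offsets (splines with 4 degrees of freedom), other sets of libraries and each library left out. Kidney libraries that share a number correlated in their deviations from the group means (0.308, 0.486 and 0.34 across genes); this pairing comes from the data, not from the labels. The block changed no call of a member within kidney.

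The members and all lists were chosen with earlier results of these data known. All members are described, and up to 4 genes per other list, tissue and direction are named in order of p. Total counts per library set the depth, and a count of 3 corresponded to 0.0193 to 0.147 CPM, which covers counting error only. Upstream sequences are from RefSeq (GRCm38.p6).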

Additional observations from a re-analysis of the deposited data

Results flagged for a closer look

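The genotype effect of 8 members differed between liver and another tissue by a test of the difference itself, in an edgeR fit of all 18 libraries (adjusted p under 0.05). Against kidney 5 of the 33 members differed (15.2%), beside 9.52% of all genes tested. Against lung 6 members differed (18.2%), beside 12.7% of all genes tested. Against kidney, the log2 fold change in liver was lower by more than its error for Gpam (-3.04), Acly (-2.37), Thrsp (-2.29), Acacb (-1.55) and Srebf1 (-1.29). Against lung it was lower for Gpam (-3.02), Fads2 (-2.52), Acly (-2.36), Srebf1 (-1.47) and Cpt1a (-1.18), and higher for Mlxipl (2.06). Both sets use the same 6 liver libraries, so they are not independent of each other. With 3 libraries per group, no test for a single outlying library was made.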

How the results depend on the processing

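With TA 1 as the only liver control 1 member fell, 0 rose, and synthesis minus oxidation was -0.0086. The count of members that rose in liver, 2 in the reported fit, was 1 with no filter, with the replicate block, with the Xist covariate, with length and GC offsets and in the fit of 18 libraries. The 5 members that differed between liver and kidney became 10 with DESeq2, 2 with the replicate block, 3 with the Xist covariate and 8 with only those tissues in the fit. Leaving out each library in turn gave 7 to 16 fallen and 0 to 2 risen members in liver, 0 to 0 in kidney, lung and kidney against lung, 1 to 9 for liver against kidney and 2 to 8 for liver against lung. For control tissues it gave 24 to 27 (liver, kidney), 29 to 32 (liver, lung) and 18 to 20 (lung, kidney), and synthesis minus oxidation ran from -0.44 to -0.20 in liver, 0.15 to 0.36 in kidney and -0.21 to 0.31 in lung. Log2 fold changes that turned sign were all of members that did not pass: Scd1 was 0.21, Acadl -0.13, Fgf21 -0.42 and Pnpla3 -0.47 with TA 1 as the only control; Pnpla2 was -0.062 and Pnpla3 -0.044 with length and GC offsets; Cpt2 was 0.13 and Ehhadh 0.015 with upper quartile scaling. With each liver library left out in turn, Lpin2 ranged from -0.25 to 0.46, Cpt2 from -0.16 to 0.050 and Ehhadh from -0.57 to 0.34; TA 2 and CCNE-TA 3 (Lpin2), CCNE-TA 2 and TA 1 (Cpt2 and Ehhadh) gave the ends. The cause of these changes was not tested, other than that fewer libraries enter some fits. Upper quartile scaling moved the median log2 fold change of all liver genes from 0.02 to 0.21 and their calls from 1897 higher and 2045 lower to 2610 and 1367; 10 members then fell and 2 rose. In liver and lung the replicate numbers did not pair the libraries (same-number correlations of 0.2, -0.00177 and 0.0826, and -0.477, -0.105 and -0.592); with the replicate block 11 members fell and 1 rose in liver and 0 changed in kidney and lung. Fgf21, at 0 to 4 counts per library in kidney and lung, is near the floor of 3 counts, where the depth allows no comparison.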
